A study of Mus musculus with 95 samples.

Results

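The lungs of C57BL/6 mice after 7 days of cohousing with an infected seeder mouse were compared with the lungs of unexposed mice killed at the same time. The comparison used every array titled as C57BL lung of day 7, which gave 8 exposed and 4 unexposed arrays, 12 of the 95 arrays of the series. Each array measured the total RNA of a whole-lung homogenate of a mouse labelled female and 8 weeks old. The strain is written C57BL in the sample titles and C57BL/6 in the design text, and no label gives these mice a transgene, a deletion or a drug. Exposed mice had shared a cage with a mouse heavily infected with Pneumocystis murina, and unexposed mice had not. Mice of days 7, 14 and 21 belong to one experiment, whose design text gives its aim as the early response to exposure. No cage held mice of both groups, and labels do not name a mouse's cage; effects of the cage and of exposure cannot be told apart. The labels do not give the fungal load of any mouse.

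Pneumocystis murina is a fungus that lives in the alveoli of mice, attached to the epithelium, and passes between animals through the air. Mice with an intact immune system clear it. Clearance depends on CD4+ T cells and on CD40 ligand, through which T cells activate B cells and macrophages; antibody and alveolar macrophages then remove the organism. Interferon-gamma made by T cells drives guanylate-binding proteins, the chemokines Cxcl9 and Cxcl10, and the MHC class II molecules that present antigen. Other mice of the series, killed at later days, were measured on the same array type and give the size these programmes reach.

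Levels are given as log2(intensity + 8), where the intensity is the deposited value of the brightest probe set of a gene. A difference is the mean of the exposed arrays minus the mean of the unexposed arrays on that scale, so a difference of 1 is a 2-fold change of a bright gene, and the offset of 8 makes the fold of a dim gene look smaller than it is. Where the upper end of an interval is given as a fold, it is a fold of the intensity itself, with the offset taken off and the unexposed mean held at its estimate. A gene without signal stands at 3. In bulk lung RNA, fewer cells of a type and less RNA per cell cannot be told apart. A gene was called when its limma p-value, adjusted over all 8251 genes by the Benjamini-Hochberg method, was below 0.05.

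All arrays carried the transcripts that define lung. Sftpc, the surfactant protein of type II alveolar cells, had a mean level of 13.02 in exposed and 12.85 in unexposed mice, and Scgb1a1, the secretoglobin of club cells, had 12.80 and 12.72. Array medians lay between 39.3 and 45.6 in intensity. RNA integrity was read from the Gapdh control probe sets as the log2 ratio of 3' over 5' signal, which was between -0.14 and 0.62 on the exposed arrays and between 0.07 and 0.58 on the unexposed ones. Any 2 of the 12 arrays correlated over all genes with r between 0.958 and 0.986.

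Some arrays carried transcripts of neighbouring tissue. Unexposed replicate 2 had a mean of 9.05 over the 11 heart muscle genes, against at most 7.04 in the other unexposed mice and 8.44 in exposed replicate 2, the highest exposed array. It also held 9.06 of Ucp1 and 9.75 of Cidea, genes of brown fat, where no other unexposed array passed 3.61 and 4.77. The immunoglobulin joining chain gene Jchain stood at 8.06 on that array and at 7.39 in exposed replicate 2, against at most 5.33 and 5.78 on the others of their groups. Skeletal muscle means were raised in exposed replicates 2 and 7 (8.06 and 6.86) and in unexposed replicate 2 (6.49), and the squamous epithelium mean of exposed replicate 7 was 6.57, with every other array at 5.30 or less. The part of these tissues in the differences below was not tested beyond leaving the arrays out, and values without unexposed replicate 2 are given beside the results of named genes that it moves by over 0.2.

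At day 7, 0 of 8251 genes were called, 0% of those tested. The smallest adjusted p in limma was 0.0565, for Acot7. The count lay between 0 and 11 under the other settings tried, highest with array weights (9 higher and 2 lower), and Acot7 was called in 11 of these settings. Without adjustment, 545 genes had a p below 0.05, which is 6.61% of all genes, where 412.55 are expected if no gene differs. Of them, 303 were higher in exposed mice (3.67%) and 242 were lower (2.93%). In 65 genes, 0.788%, the exposed and unexposed arrays did not overlap, 38 with every exposed array above (0.461%) and 27 with every exposed array below (0.327%). The median difference over all genes was -0.01, and 47.4% of genes had a difference above 0.

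**Figure D1:**
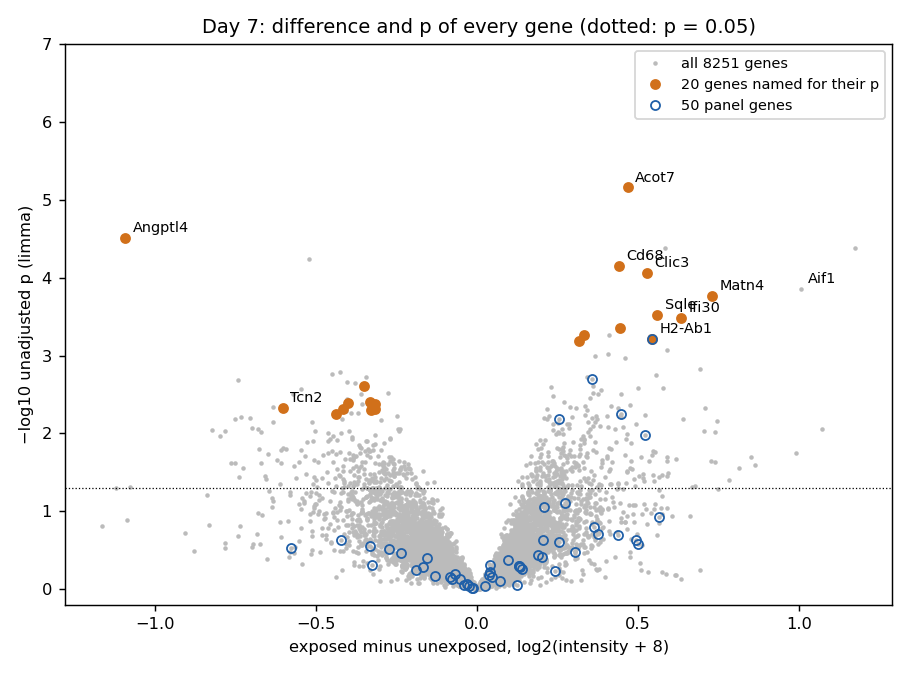
Difference (exposed minus unexposed, log2 scale) against -log10 of the unadjusted limma p for each of the 8251 genes at day 7. Filled orange points are the 20 genes named for their small p, open blue circles the 50 measured panel genes, and the dotted line is p = 0.05; Acot7 and Angptl4 stand highest on either side and most panel genes lie below the line.

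The absence of calls came with fairly narrow intervals. For 7936 of 8251 genes, 96.2%, the 95% confidence interval of the difference lay within 1 log2 unit of 0 on the scale with the offset. The median half-width of that interval was 0.29, with quartiles of 0.23 and 0.38. With the offset taken off, the interval lay within a 2-fold change of the intensity in either direction for 6338 genes, 76.8%. With intervals widened by Bonferroni so that they hold for all 8251 genes at once, 5105 genes (61.9%) stayed within 1 log2 unit and 7926 genes (96.1%) within 2. This precision rests on the numbers of arrays compared, 8 exposed and 4 unexposed, and not on a read depth. It also rests on a spread estimated over all 37 arrays of the 6 groups fitted together, which include mice of later days.

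**Figure D2:**
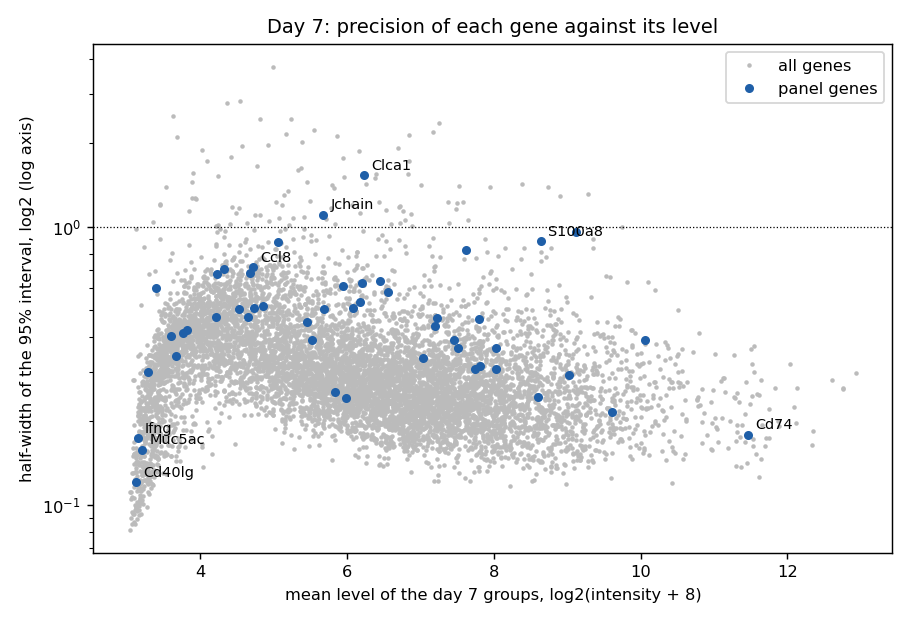
Half-width of the 95% interval of the day 7 difference (log axis) against the mean level of the day 7 groups, for all genes (grey) and the panel genes (blue); the dotted line marks 1 log2 unit. Genes at the left edge, near the level of 3, have narrow intervals because the offset compresses dim values, and Clca1 and Jchain lie above the line.

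Smaller shares of the immune genes than of all genes had intervals this narrow. The 20 immune lists together held 353 measured genes, of which 0 were called, 24 were higher (6.80%) and 7 lower (1.98%) at an unadjusted p below 0.05, with a median difference of 0.01. For 328 of the 353 the 95% interval lay within 1 log2 unit of 0, and for 239, 67.7%, it lay within a 2-fold change of the intensity. The simultaneous interval lay within 1 log2 unit for 149 and within 2 for 330. Among the 141 immune genes brighter than the median gene, 18 were higher and 1 lower, 12.8% and 0.709%, against 5.12% and 2.28% of all 4125 genes that bright. A further panel of 55 well-known response genes, of which 50 were measured, had 41 with an interval within 1 log2 unit of 0, 26 with one within a 2-fold change of the intensity and 5 whose interval excluded 0.

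**Figure D3:**
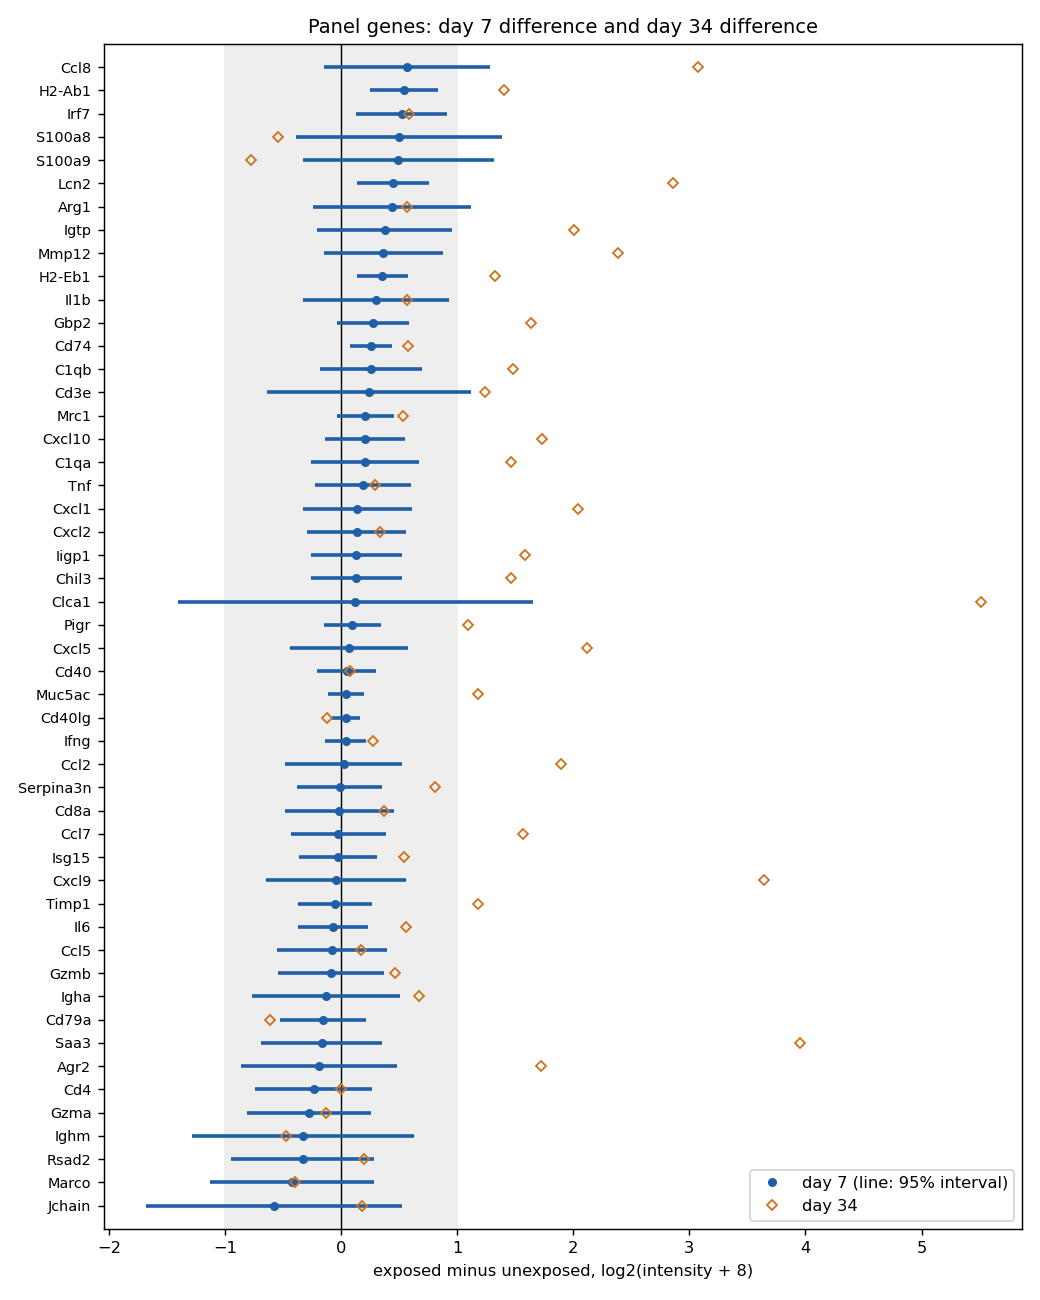
Difference at day 7 (blue points, with 95% intervals as lines) and at day 34 (open orange diamonds) for the 50 measured panel genes, ordered by the day 7 difference; grey marks 1 log2 unit on either side of 0. For Saa3, Cxcl9, Ccl8 and Clca1 the diamond lies far to the right of the day 7 interval.

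Among the chemokines, Cxcl9, which draws T cells to sites of interferon-gamma, was near the floor in most mice. Its lowest, median and highest level in the 8 exposed arrays were 3.16, 3.25 and 3.92, and the unexposed arrays read 3.21, 3.94, 3.26 and 3.26. One unexposed and 2 exposed mice were higher than the others, and the groups overlapped. The difference was -0.04 with a 95% interval of -0.64 to 0.56, with an upper end of 2.89-fold at an intensity of 7.77, where the exposed mice of day 34 averaged 179. That end was 5.68-fold without unexposed replicate 2, the high unexposed mouse. Cxcl10, a second ligand of the same receptor, had a difference of 0.20 (-0.14 to 0.55), with 7 of 8 exposed arrays above the mean of the unexposed.

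Ccl8, a monocyte attractant, had the widest room among the CC chemokines. Exposed mice had a lowest, median and highest level of 4.52, 5.04 and 5.43, and unexposed mice 4.51, 4.93, 3.81 and 4.48. All 8 exposed arrays lay above the mean of the unexposed and 5 lay above every one of them. The difference was 0.57 with an interval of -0.15 to 1.28, an adjusted p of 0.797 in limma and an upper end of 3.27-fold, or 4.22-fold without unexposed replicate 2. Ccl2 (0.02, -0.48 to 0.53) and Ccl7 (-0.02, -0.43 to 0.38), which recruit monocytes through Ccr2, had upper ends of 1.68-fold and 1.87-fold. Ccl12, another ligand of Ccr2, had a difference of 0.42 (0.01 to 0.82) at an unadjusted p of 0.045 and was the only one of 14 measured CC chemokines below 0.05, 7.14% against 3.67% of all genes; with pooled controls it was 0.15. The neutrophil attractants Cxcl1 (0.14, -0.33 to 0.61), Cxcl2 (0.13, -0.29 to 0.56) and Cxcl5 (0.07, -0.44 to 0.58) stayed within 1 log2 unit, and none of the 11 CXC chemokines had a p below 0.05.

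Cytokine genes gave narrow intervals. Each of the 30 measured interleukins and other cytokines had an interval within 1 log2 unit of 0 and none had a p below 0.05 in either direction. Il1b, the inflammasome cytokine, had a difference of 0.30 (-0.32 to 0.93), which was 0.60 (0.15 to 1.06) with the unexposed arrays of days 7, 14 and 21 pooled as controls. Differences were smaller for Tnf, at 0.19 (-0.23 to 0.61) and Il6 -0.07 (-0.37 to 0.23). Ifng stood at 3.04, 3.19 and 3.27 (lowest, median and highest) in exposed and at 3.10, 3.15, 3.12 and 3.14 in unexposed mice, and the group means correspond to intensities of 0.98 and 0.74. The narrow interval of Ifng (-0.14 to 0.21) is therefore one of a gene at the floor, as were those of 9 panel genes whose mean intensity was 8 or less in both groups.

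Genes that answer to interferon-gamma bear on the same pathway at readable levels. Of 29 measured genes of the interferon-gamma and Th1 list, 22 had a difference above 0, with a median of 0.12. By the brightest probe set of each gene, none had a p below 0.05 and every 95% interval lay within 1 log2 unit. Gbp2, a guanylate-binding protein that attacks vacuoles of microbes, had 0.27 (-0.03 to 0.58). Igtp and Iigp1, immunity-related GTPases, had 0.38 (-0.21 to 0.96) and 0.13 (-0.26 to 0.52). A second probe set of Iigp1 read 0.53 at a mean level of 6.56, with an unadjusted p of 0.028 in limma. The median of the list was 0.65 at day 34, when 17 of the 29 genes were called higher, against 8.7% of all genes.

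Type I interferon response genes did not share a direction. Irf7, the transcription factor that amplifies type I interferon, had levels of 5.29, 5.86 and 6.26 (lowest, median, highest) in exposed mice against 5.26, 5.27, 4.77 and 5.75 in unexposed. All 8 exposed arrays lay above the mean of the unexposed, and the difference was 0.52 (0.13 to 0.91), with an adjusted p of 0.649 in limma. A second probe set of Irf7 read -0.10. Irf9, part of the complex that carries the signal to the nucleus, was 0.38 higher (0.11 to 0.66), Usp18, a brake on the receptor, 0.33 (0.07 to 0.59), and Ifit1, which binds viral RNA, 0.34 (0.06 to 0.62). These 4 of 16 measured genes had a p below 0.05, 25% against 3.67% of all genes, all higher. In contrast Isg15, the ubiquitin-like modifier, differed by -0.03 (-0.37 to 0.31) and Rsad2, the antiviral enzyme viperin, by -0.33 (-0.95 to 0.28), and the median of the list was 0.04. The 4 genes had differences of 0.25 to 0.45 with the unexposed arrays of days 7, 14 and 21 pooled as controls.

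Promoters of a gene with a higher mean and of one without are shown because interferon-response genes share a recognisable element there. The sequences are the 250 bases before the gene start on the coding strand, from RefSeq on GRCm38.p6, and capitals mark bases within matches to the core of the interferon-stimulated response element, a pair of GAAA boxes with 2 free bases between them, searched on both strands with overlaps allowed. Of 32851 promoters in the table, 978 held a match, 2.98%.
Ifit1, chr19:34640639-34640888, plus strand: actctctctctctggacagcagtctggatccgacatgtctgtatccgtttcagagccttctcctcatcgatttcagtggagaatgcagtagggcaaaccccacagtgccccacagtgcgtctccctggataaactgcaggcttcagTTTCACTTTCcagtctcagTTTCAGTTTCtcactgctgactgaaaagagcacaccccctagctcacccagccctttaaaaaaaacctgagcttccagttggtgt
Isg15, chr4:156200819-156201068, minus strand: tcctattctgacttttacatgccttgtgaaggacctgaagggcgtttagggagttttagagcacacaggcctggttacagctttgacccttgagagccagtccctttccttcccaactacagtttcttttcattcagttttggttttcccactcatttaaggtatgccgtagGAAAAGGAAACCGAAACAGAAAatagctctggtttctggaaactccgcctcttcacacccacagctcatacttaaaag
The first matched base was 104 bases before the start in Ifit1 and 78 in Isg15. Both genes had the element and their differences at day 7 were 0.34 and -0.03.

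Acute phase and neutrophil genes showed no common difference. Saa3, the serum amyloid A that lung epithelium and macrophages make under inflammation, had levels of 4.14, 4.83 and 5.24 in exposed mice and of 5.00, 5.79, 4.11 and 4.86 in unexposed. The unexposed mice spanned more than the exposed, and 3 of 8 exposed arrays lay above their mean. The difference was -0.17 (-0.69 to 0.35), with an upper end of 1.37-fold. The sign rests on unexposed replicate 2, the highest of these mice: without it the difference was 0.12 (-0.42 to 0.65), with an upper end of 1.83-fold, and with pooled controls it was -0.48 (-0.87 to -0.08). Day 34 reached 3.95 (3.27 to 4.63). Lcn2, lipocalin that withholds iron from microbes, read 8.05, 8.26 and 8.46 in exposed and 7.82, 7.41, 7.95 and 8.07 in unexposed mice. Its difference was 0.45 (0.14 to 0.75), with all 8 exposed arrays above the unexposed mean, an unadjusted p of 0.0056 and an adjusted p of 0.607. It was 0.11 with pooled controls, and a second, dimmer probe set of Lcn2 read -0.41.

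S100a8 and S100a9, the calprotectin subunits that fill neutrophils, varied from mouse to mouse. S100a8 spanned 7.70, 9.10 and 9.69 in exposed mice and 7.75, 8.55, 9.12 and 8.13 in unexposed. Its difference of 0.50 had an interval of -0.39 to 1.39, with an upper end of 2.66-fold; S100a9 had 0.49 (-0.33 to 1.32). With pooled controls both were larger, at 1.12 (0.45 to 1.79) and 1.04 (0.42 to 1.66). Of the 21 measured neutrophil genes, 3 were higher at a p below 0.05, 14.3%, against 3.67% of all genes, namely Lcn2, Cyba (0.33, an NADPH oxidase subunit) and Fpr2 (0.39, a formyl peptide receptor). The granule enzyme Mpo (-0.45) was lower, without overlap, and its second probe set read 0.09 at a low mean level of 3.83. The median was -0.01.

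Macrophage and monocyte genes had the highest median difference of the 20 immune lists. Of 34 measured, 26 had a difference above 0, and 8 were higher and 0 lower at a p below 0.05, 23.5% against 3.67% of all genes. The median difference was 0.17. Without unexposed replicate 2, 27 were above 0, 11 were higher at that p and the median was 0.23. With the unexposed arrays of days 7, 14 and 21 pooled, 21 were above 0, 11 were higher, 1 was lower and the median was 0.09. The share of 3.67% belongs to the comparison without these changes. Shares of all genes under the changed settings are not given here, so their counts at that p have no base beside them. In the comparison without these changes no member was called, and 30 of the 34 intervals lay within 1 log2 unit.

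Cd68, a lysosomal protein of macrophages, read 7.07, 7.41 and 7.58 in exposed mice and 6.93, 7.00, 6.73 and 7.11 in unexposed, so 7 exposed arrays lay above every unexposed one. The difference was 0.44 (0.24 to 0.64), with an adjusted p of 0.0961 in limma. It was 0.18 with pooled controls. A second probe set of Cd68 differed by -0.04, but its mean level of 3.21 was near the floor, where little change can show. Aif1, the calcium-binding protein Iba1, stood at 4.24, 4.89 and 5.28 in exposed and at 3.65, 4.54, 3.55 and 3.66 in unexposed mice. Only unexposed replicate 2 reached into the exposed range. The difference was 1.01 (0.53 to 1.48), the largest of the list, with an adjusted p of 0.143; without unexposed replicate 2 it was 1.24 with an adjusted p of 0.0408, and with pooled controls 0.59.

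Ccr2, the receptor that brings monocytes out of the marrow, was uneven among the exposed. Its levels were 6.00, 7.03 and 7.61 in exposed mice and 6.36, 6.24, 6.15 and 6.27 in unexposed. One exposed array lay below every unexposed one, while the other 7 lay above them all. The difference was 0.71 (0.23 to 1.19), at an unadjusted p of 0.0047, and was 0.65 with pooled controls. Spi1, the myeloid transcription factor PU.1, had 0.36 (0.14 to 0.59), and Tyrobp, the adaptor of myeloid receptors, 0.39 (0.05 to 0.72). For 4 further macrophage genes the interval held 0. The complement genes C1qa and C1qb had 0.20 (-0.26 to 0.67) and 0.25 (-0.19 to 0.69), and both were highest in unexposed replicate 2. Without that array they were 0.58 (0.15 to 1.00) and 0.57 (0.16 to 0.99), with pooled controls -0.08 and -0.02, and a second probe set of C1qb read -0.37. The mannose receptor Mrc1 had 0.21 (-0.03 to 0.45), and Marco, a scavenger receptor, -0.42 (-1.13 to 0.28), or -0.22 without unexposed replicate 2.

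Several MHC class II genes had higher means in exposed mice, none of them called, while the median of their list was below 0. H2-Ab1, the beta chain of I-A, read 8.99, 9.29 and 9.63 in exposed mice and 8.64, 8.83, 8.42 and 9.12 in unexposed, with 6 exposed arrays above every unexposed one. The difference was 0.54 (0.25 to 0.84), with an unadjusted p of 0.00061 and an adjusted p of 0.312. The partner chain H2-Aa had 0.34 (0.14 to 0.55), H2-Eb1, the beta chain of I-E, 0.36 (0.14 to 0.57), the invariant chain Cd74 0.26 (0.08 to 0.43) and H2-DMb1, which loads peptide, 0.45 (0.14 to 0.75). In each of the 3 chains H2-Ab1, H2-Aa and H2-Eb1, all 8 exposed arrays lay above the mean of the unexposed. With pooled controls the 5 differences were 0.19, 0.19, 0.17, 0.11 and 0.18, smaller by more than 1.5 times in each. Of the 23 measured genes of MHC class II and dendritic cells, 5 were higher, those just given, and 1 was lower at a p below 0.05, 21.7% and 4.35% against 3.67% and 2.93% of all genes. Of the 23, 10 were above 0 and the median was -0.05. The lower one was H2-Ea (-0.38), the alpha chain of I-E, a gene that is defective in C57BL/6 mice. H2-Ab1 and H2-Eb1 differed by a further 0.86 and 0.97 at day 34, with adjusted p of 0.035 and 0.0016 for the change between days.

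The promoters of H2-Aa and H2-Eb1 are shown because MHC class II genes share a set of elements that the transactivator CIITA reads, of which the last before the start is the Y box. Capitals mark its sequence CTGATTGG, searched on both strands in the 250 bases before the start; 1258 of 32851 promoters held it, 3.83%. Sequences are from RefSeq on GRCm38.p6, on the coding strand.
H2-Aa, chr17:34287824-34288073, minus strand: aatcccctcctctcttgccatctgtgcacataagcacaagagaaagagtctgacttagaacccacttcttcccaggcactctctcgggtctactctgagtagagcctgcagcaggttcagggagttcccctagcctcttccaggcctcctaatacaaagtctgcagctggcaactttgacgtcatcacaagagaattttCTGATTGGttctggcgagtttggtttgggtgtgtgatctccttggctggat
H2-Eb1, chr17:34305617-34305866, plus strand: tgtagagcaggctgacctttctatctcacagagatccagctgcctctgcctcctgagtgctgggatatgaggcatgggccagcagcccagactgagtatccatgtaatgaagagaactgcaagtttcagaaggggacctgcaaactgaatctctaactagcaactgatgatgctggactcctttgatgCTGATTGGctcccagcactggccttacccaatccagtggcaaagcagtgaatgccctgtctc
The Y box began 51 bases before the start in H2-Aa and 62 in H2-Eb1. A match describes these letters and not binding.

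In the list of MHC class I and antigen processing, 10 of 13 measured genes were above 0, with a median of 0.12. Of these 13, 1 was higher at a p below 0.05, 7.69% against 3.67% of all genes. It was Psme1 (0.35, 0.12 to 0.58), an activator of the proteasome. Its second probe set read 0.01 at a mean level of 3.56, near the floor. Psmb8, a subunit of the immunoproteasome, had 0.20 (-0.01 to 0.42).

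**Figure D4:**
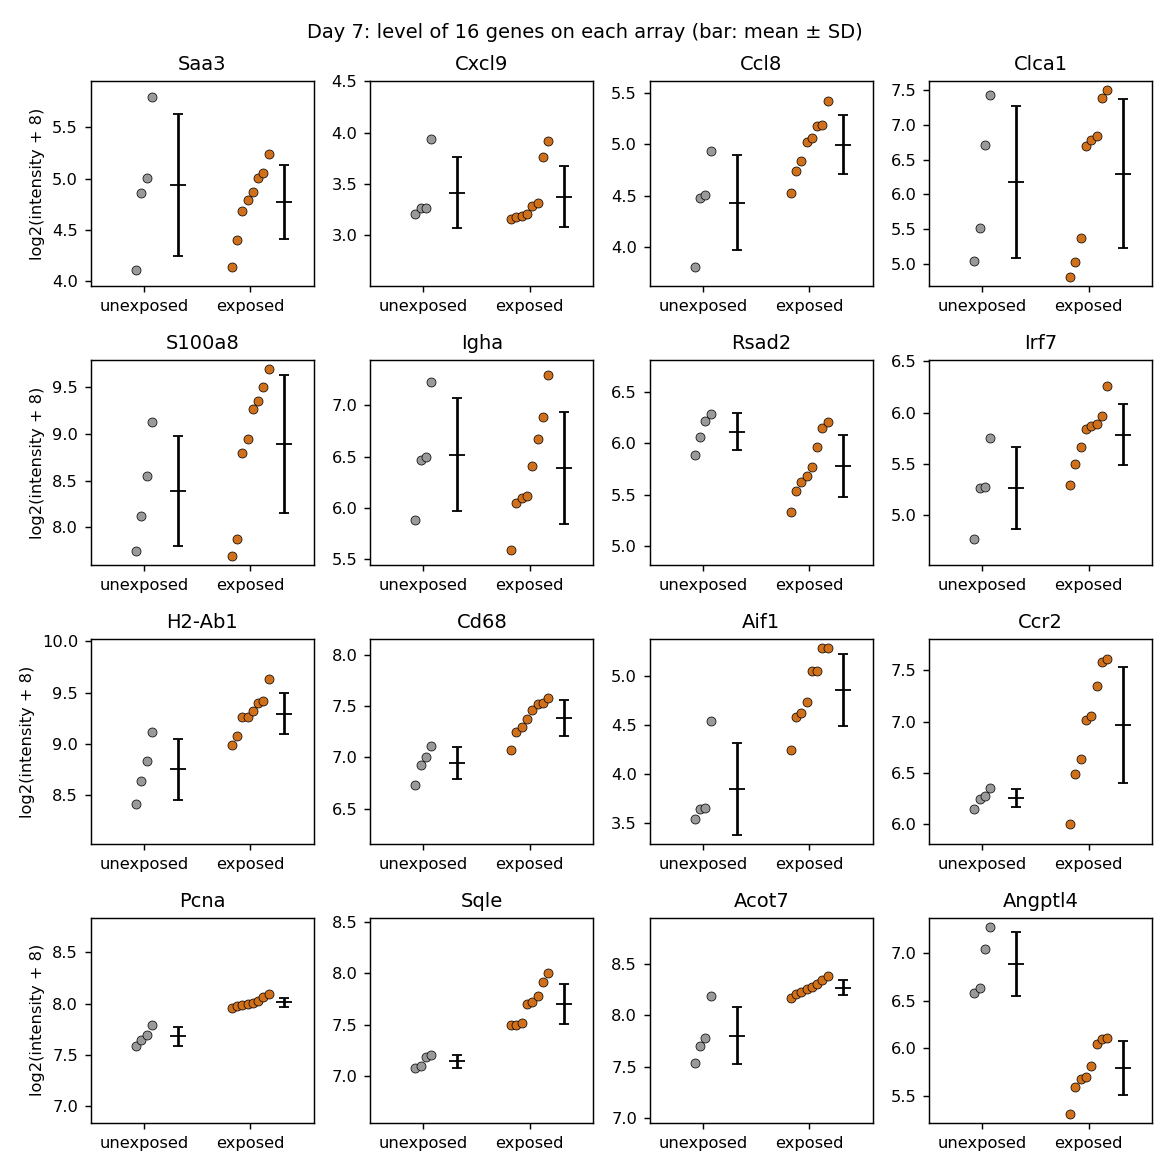
Level of 16 genes on each of the 4 unexposed (grey) and 8 exposed (orange) arrays of day 7, as log2(intensity + 8), with mean and SD beside the points; arrays are sorted by level and panels span at least 2 log2 units. Saa3, Cxcl9, Clca1 and Igha overlap throughout, while Pcna, Sqle and Angptl4 do not overlap.

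Lymphocyte genes showed no lean toward exposure. T cell genes had a median of 0.02 over 26 measured, with 1 higher (Pdcd1, the checkpoint receptor, 0.34) and 1 lower (Lat, the adaptor of the T cell receptor, -0.28) at a p below 0.05. Each is 3.85% of the list, near the 3.67% higher and 2.93% lower of all genes. Cd3e, of the T cell receptor complex, had a difference of 0.24 with an interval of -0.64 to 1.12, with an upper end of 2.59-fold; Cd4 had -0.24 (-0.74 to 0.27) and Cd8a -0.01 (-0.49 to 0.46). Cytotoxic genes had a median of -0.03 over 23, with none below 0.05, and granzymes Gzma and Gzmb had -0.27 (-0.81 to 0.26) and -0.08 (-0.54 to 0.37).

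B cell genes lay mostly below 0: 2 of 21 measured had a difference above 0, and the median was -0.14. The lean was smaller without 1 mouse. Without unexposed replicate 2, the array with raised heart, brown fat and immunoglobulin transcripts, the median was -0.07 with 6 above 0, and with pooled controls it was 0.01 with 12 above 0. The difference of Ighm, the heavy chain of IgM, went from -0.33 (-1.29 to 0.63) to 0.12, and that of Jchain from -0.58 (-1.68 to 0.53) to 0.12. Igha, the heavy chain of IgA, read 5.59, 6.26 and 7.29 in exposed and 6.49, 7.23, 6.47 and 5.89 in unexposed mice. Its difference was -0.13 (-0.77 to 0.51), with an upper end of 1.46-fold; without unexposed replicate 2 it was 0.11 (-0.58 to 0.80), with 1.82-fold.

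Of the epithelial response, Clca1, the goblet cell protein with the largest panel change at day 34, was the least determined gene of the panel. Exposed mice read 4.81, 6.73 and 7.50 and unexposed mice 5.52, 7.43, 6.71 and 5.04, so both groups held low and high mice. The interval of -1.41 to 1.66 around 0.12 has an upper end of 3.42-fold. Without unexposed replicate 2, the highest of the unexposed mice, the difference was 0.54 (-1.14 to 2.23) and the upper end 5.32-fold. The day 34 difference was 5.51 (4.36 to 6.66). Of 13 measured genes of the goblet cell and mucus list, 5 had a day 7 difference above 0, with a median of -0.01. Of the 13, 2 were lower and 0 higher at an unadjusted limma p below 0.05, 15.4% against 2.93% of all genes lower. The lower genes were Clca3a1 (-0.40) and Spdef (-0.35), and neither was called. Agr2, the disulfide isomerase that folds mucins, had -0.19 (-0.86 to 0.49), or 0.04 without unexposed replicate 2, Pigr, which carries IgA across epithelium, 0.10 (-0.15 to 0.34), and Muc5ac, the airway mucin, was near the floor at a mean intensity of 1.40 in exposed mice. Chil3, the chitinase-like protein of alveolar macrophages, had 0.13 (-0.26 to 0.52) and Arg1, arginase of alternative activation, 0.44 (-0.24 to 1.12), or -0.14 with pooled controls. Timp1, an inhibitor of metalloproteinases, had -0.05 (-0.37 to 0.26), Serpina3n, an acute phase serpin, -0.01 (-0.38 to 0.35), and Mmp12, macrophage elastase, 0.36 (-0.15 to 0.87).

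Outside the immune lists, proliferation genes leaned upward. Of 39 measured cell cycle genes, 30 had a difference above 0 and 10 were higher, 0 lower, at a p below 0.05, which is 25.6% against 3.67% of all genes, with a median of 0.15. Pcna, the sliding clamp of DNA replication, read 7.96, 8.00 and 8.09 in exposed and 7.80, 7.65, 7.70 and 7.58 in unexposed mice, with no overlap. Its difference was 0.33 (0.16 to 0.51), at an adjusted p of 0.305. Mcm7 and Mcm2, of the replicative helicase, had 0.41 (0.19 to 0.63) and 0.29 (0.08 to 0.49). With pooled controls 4 cell cycle genes were higher at that p, a count without the share of all genes in that fit. The median was then 0.02, and Pcna was at 0.16.

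Circadian clock genes were spread in both directions. Per1 and Per2, which repress the clock, had differences of -0.80 (-1.40 to -0.20) and -0.42 (-0.68 to -0.17), Cry1, their partner, -0.33 (-0.55 to -0.11) and Nfil3, a clock output factor, -0.29 (-0.54 to -0.04). Other probe sets of Cry1 read 0.05 and 0.14 at mean levels of 3.19 and 3.10, near the floor. One of Nfil3 read 0.07 at 5.46. Per1 ranged over 4.85, 5.38 and 6.82 in exposed and over 5.41, 6.45, 6.54 and 7.06 in unexposed mice. Of 17 measured clock genes, 4 were lower and 1 higher at a p below 0.05, 23.5% and 5.88% against 2.93% and 3.67% of all genes. With pooled controls the difference of Per2 was -0.53 with an adjusted p of 0.0117. Per2 was also among the genes called lower at day 14, where it fell by 0.67 (adjusted p 0.001).

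Red cell genes mostly had lower means in exposed mice and alveolar genes higher ones. The band 3 anion exchanger Slc4a1 read 5.09, 5.55 and 5.90 in exposed and 6.55, 5.91, 6.26 and 6.26 in unexposed mice, without overlap, a difference of -0.75 (-1.40 to -0.11). Ank1, the red cell ankyrin, had -0.46 (-0.80 to -0.11), and its other probe sets read -0.14 and -0.76. Slc4a1 and Ank1 were the only 2 of 16 erythroid genes with a p below 0.05, 12.5% against 2.93% of all genes lower. Of the 16, 4 had a difference above 0. In the alveolar list 3 of 14 were higher at that p, 21.4% against 3.67%: the surfactant protein Sftpb (0.48, 0.11 to 0.85), Scd1, which desaturates fatty acids (0.34, 0.02 to 0.66), and Pdpn, podoplanin of type I cells (0.31). Sftpb was 0.26 without unexposed replicate 2, and other probe sets of Scd1 read 0.18 and 0.02, at mean levels of 11.87 and 4.30.

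The smallest p-values belonged to genes of several unrelated roles. Acot7, a cytosolic acyl-CoA thioesterase, read 8.17, 8.27 and 8.38 in exposed mice and 7.78, 7.54, 7.70 and 8.19 in unexposed, so 7 of 8 exposed arrays lay above all of the unexposed. Its difference was 0.47 (0.29 to 0.65). Angptl4, a secreted inhibitor of lipoprotein lipase, read 5.31, 5.75 and 6.11 in exposed and 6.58, 6.63, 7.28 and 7.05 in unexposed mice, with no overlap. The difference was -1.09 (-1.55 to -0.63), with an adjusted p of 0.0866; 3 further probe sets read -0.81, -0.70 and -0.30. Sqle, squalene epoxidase of sterol synthesis, also did not overlap, at 7.49, 7.71 and 8.01 against 7.18, 7.08, 7.10 and 7.20, a difference of 0.56 (0.28 to 0.84).

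The other rises by the same rule were Clic3 (0.53), Matn4, a matrix protein (0.73), Ifi30, the thiol reductase of antigen processing (0.63), Cdkn2d, a cell cycle inhibitor (0.44), and Utp3 (0.32). The other falls were Gnao1 (-0.35), Cpt1a, the gate of fatty acid oxidation (-0.40), Abcg2, a drug efflux pump (-0.32), Tcn2, the cobalamin carrier transcobalamin (-0.60), Lpgat1 (-0.32), Bdkrb1, a bradykinin receptor (-0.42), Myrf (-0.33) and Peg3 (-0.44). Other probe sets of Gnao1 read 0.03, -0.27, -0.42 and -0.05, at mean levels of 6.01, 5.31, 3.64 and 3.41. A second probe set of Lpgat1 read -0.09, and others of Peg3 read -0.08 and -0.72. Without unexposed replicate 2, Cpt1a was at -0.61 and Bdkrb1 at -0.63, each with an adjusted p of 0.0408 in limma. Adjusted p-values over the 20 genes began at 0.0565 and none passed. With the unexposed arrays of all 3 days as controls all 20 kept their sign, but 16 were smaller by more than 1.5 times, Acot7 at 0.25 and Angptl4 at -0.65 among them.

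The days that followed in the same experiment were compared through differences of effects, which share no arrays. At day 14, 22 genes were called, 18 higher (0.218%) and 4 lower (0.0485%), and at day 21 none was, with 958 at an unadjusted p below 0.05. The test of day 14 minus day 7 called 0 genes, 0% of 8251, with 630 at an unadjusted p below 0.05 and a smallest adjusted p of 0.0946. Day 21 minus day 7 also called 0 (474 unadjusted, smallest adjusted p 0.176). A gene called at day 14 is thus not shown to differ from its day 7 value.

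For single genes called at day 14 the estimates of days 7 and 14 lay apart, although the test between these days called none. Rsad2 rose by 1.58 at day 14 (adjusted p 0.0014) against -0.33 at day 7, Igha rose by 1.72 (0.0010) against -0.13, and Isg15 by 0.67 (0.030) against -0.03. The 95% intervals of day 7 for these 3 genes ended at 0.28, 0.51 and 0.31, below the day 14 value. That value has an error of its own, and the genes were chosen for their call at day 14. Setting the 2 side by side therefore does not show a difference between the days. Ccl5, a chemokine of T and NK cells, rose by 0.99 at day 14 (0.017), where its day 7 interval was -0.55 to 0.39. Smooth muscle genes Tagln and Myh11 fell by 0.72 and 0.83 at day 14 and had -0.05 and -0.30 at day 7. Of the 18 genes higher at day 14, 8 had a day 7 difference above 0, and their day 7 median was -0.03.

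Against day 34 the contrast was clear. There 718 genes were higher (8.7%) and 451 lower (5.47%) in exposed mice, and the day 34 effect differed from the day 7 effect for 144 genes, 1.75% of those tested, 107 upward (1.3%) and 37 downward (0.448%). Among the panel, 30 of 50 genes were called higher at day 34, and for 29 of them the day 7 upper bound lay below the day 34 change, 23 with the simultaneous bound. The exception was Irf7, with 0.58 at day 34 and an upper bound of 0.91 at day 7. The day 34 change has an error of its own, and these genes were chosen for their call at day 34. Counts of bounds below that change are therefore no test between the days. For 21 panel genes the difference between days was itself called: the change of Saa3 was 4.12 greater at day 34, of Cxcl9 3.69, of Ccl8 2.51, of Lcn2 2.41 and of Clca1 5.39. Day 34 came from another experiment with its own controls. Among its 5 unexposed arrays the squamous means reached 7.30 and the Gapdh ratios 2.14, above any day 7 array, with medians of 7.19 and 1.26 against 5.11 and 0.16 in the exposed arrays. With the Gapdh ratio as a covariate 65 genes differed between the days.

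**Figure D5:**
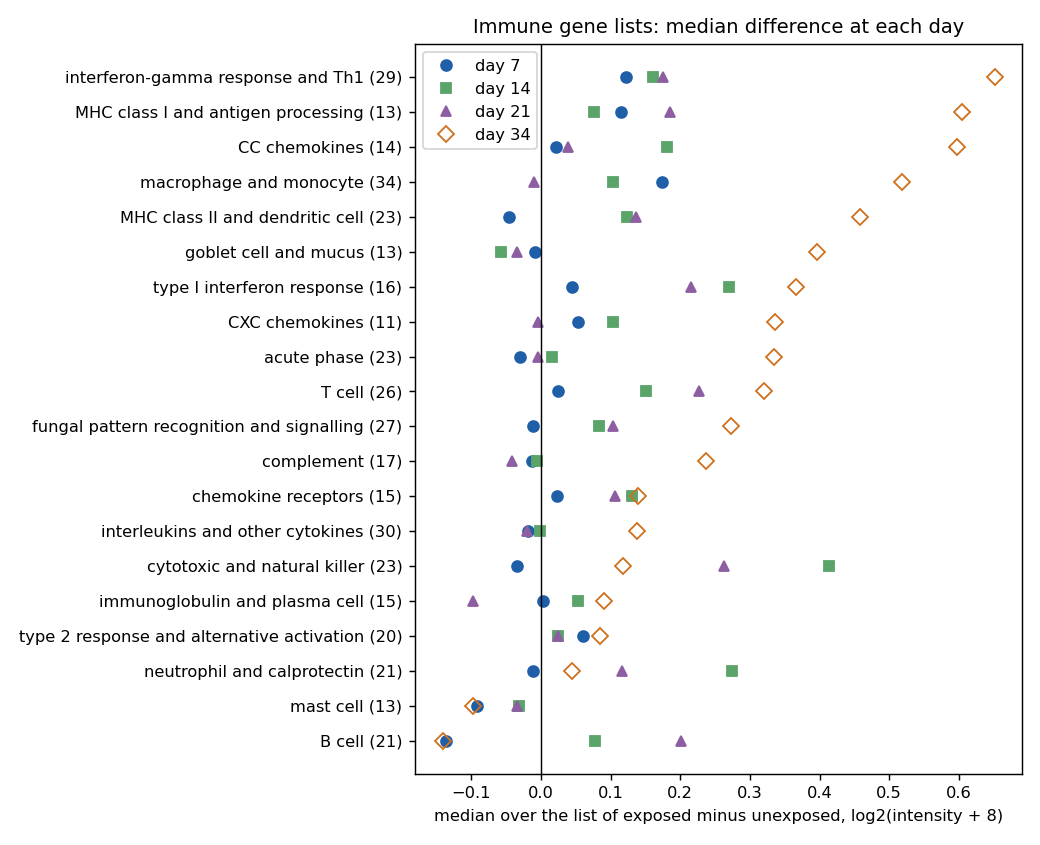
Median of the difference over each of the 20 immune lists at day 7 (blue circles), day 14 (green squares), day 21 (purple triangles) and day 34 (open orange diamonds), on the log2 scale, with the number of measured genes in brackets. At day 7 every list lies between -0.14 and 0.17, while day 34 reaches 0.65 for the interferon-gamma list.

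Genes that changed at day 34 were not evenly placed at day 7. Of the 718 genes higher at day 34, 534 (74.4%) had a day 7 difference above 0, against 47.4% of all genes, and their median was 0.10. At a p below 0.05, 89 of them were higher and 8 lower at day 7, 12.4% and 1.11%. Of the 451 genes lower at day 34, 180 (39.9%) were above 0 at day 7. The mice and the controls of these days are different, and the shares carry no test. The same 718 genes had medians of 0.04 at day 14 and 0.03 at day 21, below that of day 7.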

How the data were processed

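Whole-lung RNA was hybridised to 95 one-colour arrays of 12487 probe sets. The deposited values are linear intensities, 1 per probe set and array, scaled so that the mean without the outer 2% at each end is about 100, as the values show; the summarisation method and software are not given in the sources used here. Of the probe sets, 10854 carry 1 gene symbol, 396 several and 1236 none; 8251 genes were kept, each by its brightest probe set, of 2072 with several. The deposited intensities were turned into log2(intensity + 8). limma 3.58.1 in R 4.3.3 (lmFit, eBayes) was fitted to 6 groups of 37 arrays, and for day 34 to 67 arrays, with Benjamini-Hochberg adjustment over all genes, 95% moderated intervals and Bonferroni simultaneous intervals. The script was tested on simulated data. Arrays were summarised in Python 3.11.15. Groups were taken from the sample titles. The p-values set a difference against the spread between mice within groups over all arrays fitted, not over the day 7 arrays alone. Each mouse counted as independent, and mice that shared a cage could not be identified.

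The members, the 33 gene lists, the panel of 55 genes and the tests were chosen with earlier results of these data known. Named were the panel, the 10 rises and 10 falls with the smallest p among genes brighter than the median, up to 4 members of each list with the smallest p and its widest interval, the leading genes of the other days, and genes called under an alternative where 5 or fewer were. Tcf19, Slc27a3, Tiam2, Pdk4, Acot1, Zbtb16 and the sterol enzymes were picked after their values were seen. Alternatives changed the offset, the filter on dim genes, the normalization, the probe set rule, the arrays fitted, the variance prior, array weights, covariates, the replicate block, the controls and single arrays. The arrays with raised muscle transcripts and the heart covariate were added after seeing the data.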

Additional observations from a re-analysis of the deposited data

Results flagged for a closer look

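In 24 of 248 sets of day 7 arrays, 1 array stood apart from its group by Dixon's test, which flags about 1 set in 20 by chance. Unexposed replicate 2 held 13 of them. It was the highest unexposed array for Cxcl9 (3.94), Ighm (10.63), Jchain (8.06), Cidea (9.75), Ucp1 (9.06), Mcm2 (5.89), Aif1 (4.54), Pdk4 (7.95), Zbtb16 (8.63) and the heart muscle mean (9.05), and the lowest for Isg15 (6.78), Lat (6.08) and Scgb1a1 (12.49). Exposed replicate 7 was lowest for Cd4 (4.38), Gzmb (4.91) and Mpo (3.78) and highest for the squamous mean (6.57). Exposed replicate 2 was highest for Ighm (10.30) and Jchain (7.39) and lowest for Cpt1a (8.29). Exposed replicate 8 was highest for Tnf (4.88) and Gzmd (4.05), exposed replicate 4 for Tcf19 (5.44) and exposed replicate 6 for Fos (10.07).

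The effect of exposure at day 34 was set against that at day 7 for 119 genes. These were the panel, the rises and falls, and others picked from the named genes. For 30 of them the effects differed in limma after adjustment over all genes, against 144 of all 8251 genes (1.75%). Some of the 119 were chosen for a small p at day 7 or at day 34, so their share is no test. The differences of the effects, day 34 minus day 7 on the log2 scale, were largest for Clca1 (5.39), Saa3 (4.12), Cxcl9 (3.69), Ccl8 (2.51), Lcn2 (2.41) and Cxcl5 (2.05). Further chemokines were Cxcl1 (1.90), Ccl2 (1.87), Ccl7 (1.59) and Cxcl10 (1.52). Interferon-gamma targets were Igtp (1.63), Iigp1 (1.46) and Gbp2 (1.36). Antigen presentation gave H2-Eb1 (0.97), Ifi30 (0.94), H2-Ab1 (0.86), Psmb8 (0.79) and Psme1 (0.56), and macrophage genes Chil3 (1.33), C1qa (1.26) and C1qb (1.23). Epithelial and matrix genes were Agr2 (1.91), Timp1 (1.23) and Pigr (0.99). Others were Lrg1 (1.51), Angptl4 (1.41), Mthfd2 (1.07), H2ax (1.06) and Nfil3 (0.69). Clic3 alone of the 30 had the lower effect at day 34 (-0.75).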

How the results depend on the processing

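The day 7 count of 0 called genes became 1 with an offset of 32, with trend and robust in eBayes, and with the unexposed arrays of days 7, 14 and 21 pooled. It became 2 with only genes above the median, quantile normalization, the mean of all probe sets, the Gapdh ratio, the squamous and skeletal muscle means, or the erythroid mean as covariates, 3 with the heart muscle mean, and 11 with array weights. Leaving out 1 array gave 0 to 4: 4 without unexposed replicate 2 (Aif1, Bdkrb1, Cpt1a and Tiam2), 1 without unexposed replicate 4 (Acot7) and 0 otherwise. Whether replicate numbers pair the arrays cannot be decided from 4 numbers. Same-numbered arrays correlated, as deviations from their group means, with r of -0.09, 0.51, 0.02 and -0.14. Only replicate 2, with 0.51, matched best with its own number. With the replicate block 1 gene was called (Aif1) and 95.7% of intervals lay within 1 log2 unit. The effects of days 14, 21 and 34 then differed from that of day 7 for 0, 0 and 134 genes.

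The share of intervals within 1 log2 unit, 96.2%, lay between 87.5% with an offset of 2 and 98.7% with an offset of 32, and between 94.3% and 96.1% with 1 array left out. Day 14 minus day 7 called 4 genes above the median only, 10 with all 95 arrays, 3 with array weights, and 0 to 2 with 1 array left out (2 without unexposed replicate 4). Day 21 minus day 7 called 1 with the erythroid mean and 0 with each array left out. Day 34 minus day 7 called 65 in place of 144 with the Gapdh ratio, and 69 to 138 with 1 array left out (69 without unexposed replicate 2, 94 without unexposed replicate 3). The share of day 34 higher genes above 0 at day 7 stayed between 70.8% and 80.0%. Of 235 genes followed over 28 settings, 158 kept their sign in all. The cause of these changes was not tested. The number of unexposed arrays and the dimness of many cytokine probe sets limit what can be seen.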

Other observations

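Enzymes of sterol synthesis were looked at after Sqle was seen among the smallest p-values, so they are described and not tested as a group. Of 17 measured enzymes, 15 had a difference above 0, 88.2% against 47.4% of all genes, and the median was 0.20. Of the 17, 5 were higher and 0 lower at an unadjusted p below 0.05, 29.4% against 3.67% of all genes higher. Fdps, which makes farnesyl diphosphate, read 8.49, 8.74 and 8.92 (lowest, median, highest) in exposed and 8.06, 8.43, 7.52 and 8.26 in unexposed mice, without overlap, a difference of 0.64 (0.19 to 1.09). With pooled controls Fdps was at 0.25, and 3 other probe sets of it read 0.21, -0.11 and -0.20, at mean levels of 7.76, 4.55 and 3.61. Msmo1 (0.59) and Idi1 (0.56) did not overlap either, and Mvd had 0.58. Among all genes, 0.461% had every exposed array above every unexposed one. The median of the enzymes was 0.27 without unexposed replicate 2, 0.12 with pooled controls, -0.02 at day 14 and -0.07 at day 21.

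Some genes of lipid metabolism were picked after their values were seen, and they do not share a direction. Pdk4, which turns pyruvate away from oxidation, had -1.12 (-2.24 to 0.00), or -0.72 without unexposed replicate 2. Acot1, an acyl-CoA thioesterase, had -0.38 (-0.70 to -0.06), or -0.63 without that array. Zbtb16, a transcription factor that glucocorticoids induce, had -0.82 (-1.43 to -0.22), or -0.55 without unexposed replicate 2, and its second probe set read 0.00. Slc27a3, of the fatty acid transport family, was higher by 1.17 (0.67 to 1.68), without overlap, and by 0.47 with pooled controls. Each missed the threshold after adjustment over all genes. Fos, an immediate early gene, had 0.99 (0.18 to 1.80), with 1 exposed array at 10.07, and its second probe set read -0.16.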
